A study of Mus musculus with 18 samples.

Results

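The genes of 4 helper T cell cytokines (Il2, Il21, Il4 and Ifng) and 4 membrane ligands of the TNF superfamily (Tnf, Cd40lg, Tnfsf8 and Tnfsf11) were followed across sorted CD4+ T cells. They were found by their symbols, and all 8 were among the 15402 genes of the expression table and among the 13190 genes tested. RNA was sequenced from 6 populations of female C57/BL6 Foxp3Timer Foxp3-IRES-GFP mice, which were 5 to 10 weeks old when sensitised. In these Foxp3-Tocky mice a Timer protein reports Foxp3 transcription, first in blue and then, as the protein matures, in red, and GFP is made with Foxp3. All mice had received 3% oxazolone, a contact sensitiser, on the abdominal skin, and the inguinal and axillary lymph nodes that drain it were taken on day 5. No unsensitised mice were among these libraries.

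The Timer-negative, GFP-negative CD4+ cells were sorted by the activation marker CD44 into Tnaive (CD44lo) and Teff (CD44hi) cells. The Timer+ cells were GFP+ and were sorted by their colours into Pers1 (intermediate blue, low red), Pers2 (high in both), PAt (low blue, high red) and Arrested (no blue, intermediate red) cells. Pers1 and Pers2 are together called Persistent below, since both transcribe Foxp3 persistently. The sample labels call the 4 Timer+ populations de novo, maturing, mature and decaying Foxp3 expressers. Each population had 3 libraries, each from pooled lymph nodes of 3 mice, so the spread is that between pools. Levels are the deposited log2 values of normalised counts, and each difference is a log2 fold change from limma, with its standard error (SE) and a p-value adjusted over the 13190 genes. A gene was called higher or lower where its adjusted p was under 0.05 and its absolute log2 fold change over 1. The values have the form of a regularised log transform, which draws the differences of weakly expressed genes such as Il2 towards 0. The read depth is unknown.

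Helper T cells act on other cells largely through secreted cytokines and through TNF family ligands on their surface, and T cell receptor signals acting through NFAT, AP-1 and NF-kappaB switch many of these genes on. IL-2 drives T cell growth, IL-21 and IL-4 help B cells, and IFN-gamma activates macrophages. CD40 ligand licenses B cells and dendritic cells, CD30 ligand (Tnfsf8) and TNF engage receptors that regulatory T cells also carry, and RANK ligand (Tnfsf11) supports dendritic cells, lymphoid organs and bone-resorbing cells. Foxp3 is known to bind NFAT and to repress several cytokine genes, Il2 among them.

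The promoters of Il2, Il21 and Il4 are shown because these were the 3 cytokine genes whose levels were higher in each Teff library than in any other library. Each line holds the 250 bases before the start site in RefSeq (build GRCm38.p6), read 5′ to 3′ on the gene's strand, which is the minus strand for all 3. Capitals mark the core of the NFAT site, GGAAA or its complement TTTCC.
Il2, chr3:37125955-37126204: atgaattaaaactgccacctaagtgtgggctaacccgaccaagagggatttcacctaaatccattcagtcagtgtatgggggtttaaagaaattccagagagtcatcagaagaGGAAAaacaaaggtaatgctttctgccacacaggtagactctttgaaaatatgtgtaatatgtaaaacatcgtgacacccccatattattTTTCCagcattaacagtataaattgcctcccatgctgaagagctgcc
Il21, chr3:37232637-37232886: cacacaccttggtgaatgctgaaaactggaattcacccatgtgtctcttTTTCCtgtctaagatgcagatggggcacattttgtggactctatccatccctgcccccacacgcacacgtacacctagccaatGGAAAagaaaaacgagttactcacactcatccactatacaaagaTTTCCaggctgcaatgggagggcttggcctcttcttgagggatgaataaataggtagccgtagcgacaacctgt
Il4, chr11:53618666-53618915: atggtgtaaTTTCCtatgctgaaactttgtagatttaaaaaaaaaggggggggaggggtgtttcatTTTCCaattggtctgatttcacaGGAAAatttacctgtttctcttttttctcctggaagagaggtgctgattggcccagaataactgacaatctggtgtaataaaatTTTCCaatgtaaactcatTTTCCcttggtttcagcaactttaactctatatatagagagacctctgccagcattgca

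In the Il2 sequence the core stands 137 and 47 bases before the start, counted to the first base of each match. The Il21 sequence holds it 201, 118 and 74 bases before the start. In the Il4 sequence it stands at 241, 184, 161, 77 and 59 bases, 5 matches in all. RefSeq windows of 300 bases, which run 50 bases past the start, were at hand for 7 of the 8 genes, without one for Cd40lg. Il4 has a further window at a start inside the gene, with 1 match. The Tnf window holds 3 matches and those of Ifng, Tnfsf8 and Tnfsf11 hold 1 each. Over 32851 windows of this length, 61.3% hold the core at least once and 9.42% at least 3 times, so a single match is common. The AP-1 letters TGANTCA (7.81% of all windows), the forkhead letters GTAAACA (3.65%) and a kappaB site (8.46%) were also searched for on both strands and had no match in the windows of the 7 genes. A match to such short letters is a description of the sequence and not of binding.

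The genes lie on 7 chromosomes (GENCODE vM21, GRCm38). Il2 (chr3:37120523-37125959, minus strand) and Il21 (chr3:37222759-37232636, minus strand) are neighbours on chromosome 3. Il2 overlaps Adad1 on the opposite strand, Il21 overlaps the antisense gene Gm12534, and Ifng (chr10:118441046-118445892, plus strand) overlaps Gm49751 on its own strand. None of these 3 overlapping genes has a row in the table. The library kit was stranded, but the strand setting of the counting is not given in the sources used here, so reads of overlapping genes may be mixed. The values are per whole gene and do not tell exons from introns.

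The sorted labels were checked on their defining genes. Foxp3 had means of 14.42 to 14.82 in the 4 Timer+ populations, 11.34 ± 0.06 (SD, n = 3) in Tnaive and 10.54 ± 0.14 in Teff, so its RNA was lower but present in the Timer-negative libraries. Cd44 had means of 9.61 ± 0.13 in Tnaive and 13.05 ± 0.01 in Teff, and Cd4 lay between 14.49 and 15.67 in every population. The 5 CD4 T cell markers summed to 16.11 to 16.86 on the log2 scale in all libraries. Markers of several other cells were highest in Teff. The 6 dendritic cell markers summed to 11.21 to 11.75 in the Teff libraries and to 6.80 to 7.34 in the other 15 libraries, led by Siglech, a gene of plasmacytoid dendritic cells, with a mean of 10.62 against 3.58 to 4.30. The 5 B cell markers summed to 12.66 to 13.19 in Teff, 11.71 to 12.31 in PAt and Arrested, 11.18 to 11.38 in Persistent and 9.72 to 10.28 in Tnaive. For 5 macrophage and monocyte markers the sums were 10.26 to 10.58 in Teff and 7.93 to 9.59 elsewhere, with Cd14 near 0 in all populations, and the 2 CD8 genes summed to 11.51 or more in Teff and to 10.70 or less elsewhere. The 4 NK cell markers summed to 8.97 to 9.05 in Teff, 9.13 to 9.42 in Tnaive and 7.20 to 7.69 in Timer+ cells. The Tnaive sum came mostly from Eomes, which T cells also express, at 9.13 in Tnaive and 7.88 in Teff. The other 3 were highest in Teff. Klrb1c had means of 8.0 in Teff, 4.8 in Tnaive and 5.4 to 6.43 in Timer+ cells. Ncr1 had 4.14 in Teff and 2.76 to 2.84 elsewhere, and Klre1 3.52 and 2.85 to 3.04. Sox13, the gamma delta T cell marker in the table, lay between 2.99 and 3.86. The 3 markers of innate lymphoid and mast cells summed to 8.86 to 9.16 in Teff, 6.51 to 6.76 in Tnaive and 9.57 to 12.03 in Timer+ cells, mostly through Il1rl1, which regulatory T cells express too. Kit was instead highest in Teff, with means of 7.73 there, 5.14 in Tnaive and 5.93 to 6.33 in Timer+ cells. Cpa3 had means of 4.0 to 4.45 in all populations. Between Teff and Tnaive, 5 of 6 dendritic, 5 of 5 B cell and 3 of 4 tested macrophage markers were called higher, beside 8.88% of all tested genes. So were 1 of 2 CD8 genes, 2 of 4 tested NK cell markers and 2 of 3 tested innate lymphoid and mast cell markers. The NK cell marker Eomes was called lower, beside 2.28% of all tested genes. The part of such other cells in the Teff values below was not tested. In sorted populations, fewer cells that transcribe a gene and less RNA in each cell cannot be told apart.

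**Figure D1:**
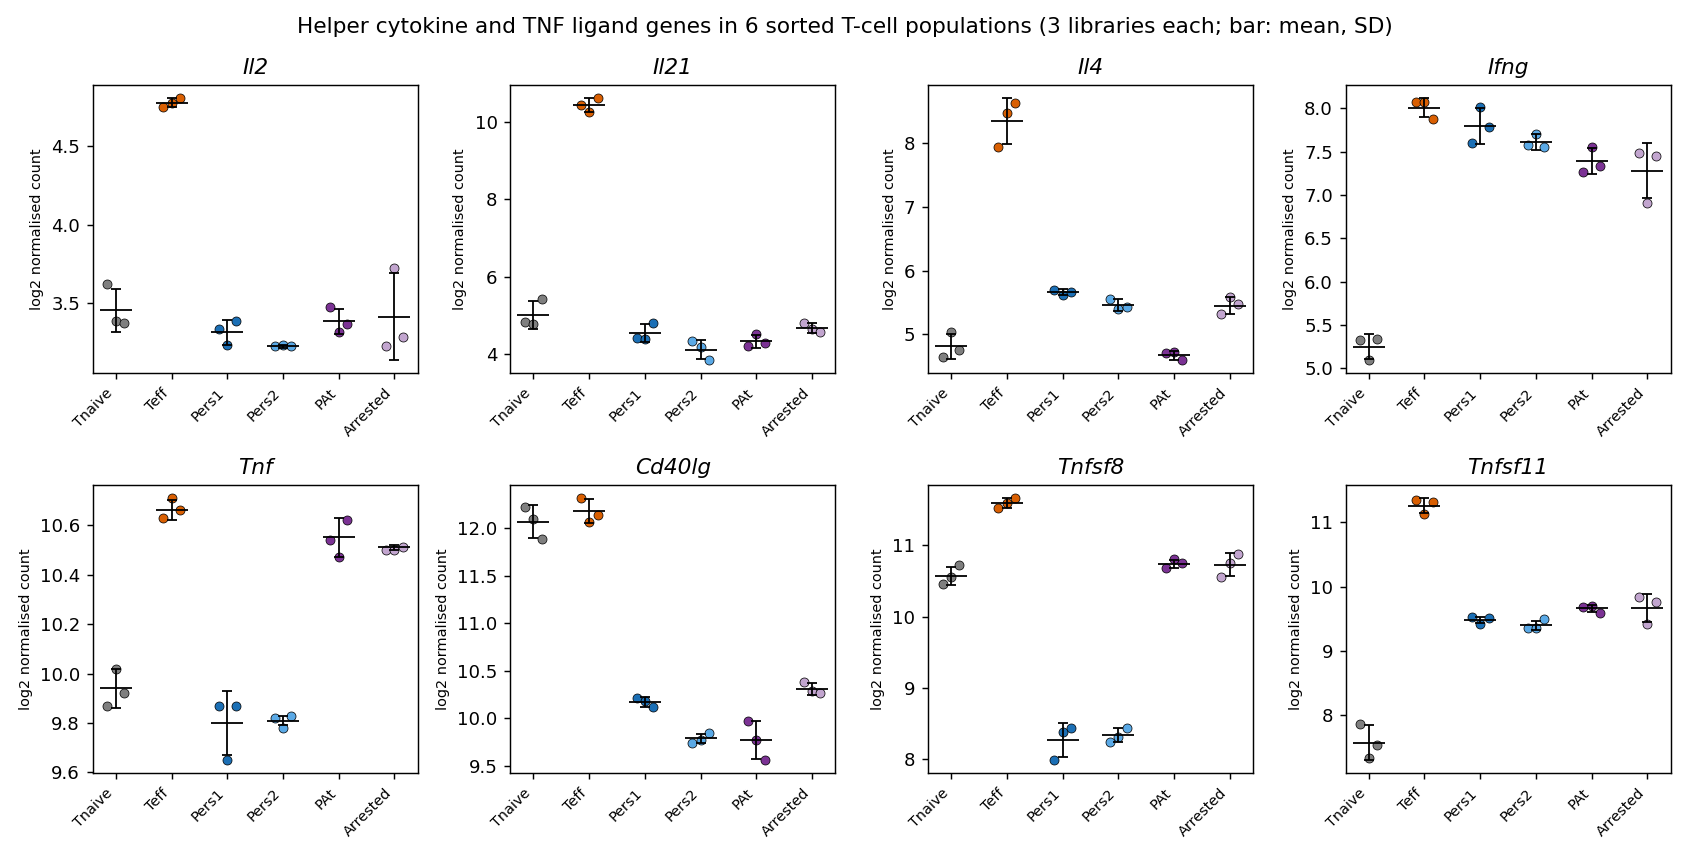
Each panel plots 1 gene, with the log2 normalised count of every library on the vertical axis (each panel has its own range) and the 6 populations on the horizontal axis. Points are libraries, the long bar is the mean and the short bars are the SD (n = 3). Il2, Il21 and Il4 stood high in Teff, Cd40lg in both Timer-negative populations, Ifng was low in Tnaive, and Tnfsf8 was low in Pers1 and Pers2.

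The cytokine genes were high in Teff, and for 3 of the 4 no other library reached the Teff level. Il21, the cytokine of follicular helper cells, read 10.43, 10.25 and 10.60 in the Teff libraries. In Tnaive it read 4.84, 4.77 and 5.42, and Pers1 had 4.42, 4.40 and 4.80. The Pers2 libraries read 4.34, 4.19 and 3.84, those of PAt 4.20, 4.51 and 4.29, and those of Arrested 4.81, 4.65 and 4.56. The lowest Teff library thus stood above the highest of the other 15. Il21 was 42.8-fold higher in Teff than in Tnaive (log2 fold change 5.42, SE 0.17, adjusted p = 8.2e-17), and ranked 7 among the 13190 genes. It was 68.4-fold lower in Persistent than in Teff (log2 fold change -6.10, SE 0.14, adjusted p = 1.9e-18) and 60.6-fold lower in PAt and Arrested (-5.92, SE 0.14, adjusted p = 4.1e-18), ranks 2 and 3 from the bottom of all genes tested in those comparisons. Among the other 5 populations, neighbours in the order Tnaive, Arrested, Pers1, PAt, Pers2 differed by 0.14 to 0.33 (adjusted p = 0.111 to 0.488) and their libraries overlapped. Against Tnaive, Il21 had -0.68 in Persistent (SE 0.14, adjusted p = 2.4e-04) and -0.50 in PAt and Arrested (SE 0.14, adjusted p = 0.0058), both under the fold change limit and with overlapping libraries.

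Il2, the T cell growth factor, had the lowest Teff level of the 8 genes, also per kilobase of exon. Its Teff libraries read 4.75, 4.78 and 4.81. All other libraries lay between 3.22 and 3.72, and the means ran from 3.22 ± 0.01 in Pers2 to 3.45 ± 0.14 in Tnaive. The Teff libraries therefore did not overlap with the rest, and the other 5 populations were not told apart (adjusted p = 0.60 to 0.932 between neighbours). Persistent had -0.19 against Tnaive (95% interval -0.38 to 0.00, adjusted p = 0.072). Pers2 read 3.22, 3.23 and 3.22, and Pers1 replicate 2 (3.23) and Arrested replicate 1 (3.22) stood at the same lowest level. Such values may mark a floor, at which differences between populations could not be seen. Il2 was 2.51-fold higher in Teff than in Tnaive (1.33, SE 0.11, adjusted p = 5.8e-10), 2.85-fold lower in Persistent than in Teff (-1.51, SE 0.09, adjusted p = 7.7e-12) and 2.61-fold lower in PAt and Arrested (-1.39, SE 0.09, adjusted p = 3.9e-11). The highest value outside Teff, 3.72, was that of Arrested replicate 2.

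Il4, which directs B cells to IgE and IgG1 and T cells to the Th2 fate, read 7.94, 8.47 and 8.64 in Teff. In Tnaive it read 4.65, 5.04 and 4.75, and in PAt 4.70, 4.72 and 4.59. Pers1 (5.70, 5.61 and 5.67), Pers2 (5.56, 5.39 and 5.43) and Arrested (5.32, 5.58 and 5.47) stood between these levels without overlap with either side. Il4 was 11.6-fold higher in Teff than in Tnaive (3.54, SE 0.14, adjusted p = 7.6e-15), 6.92-fold lower in Persistent than in Teff (-2.79, SE 0.12, adjusted p = 4.9e-14) and 9.78-fold lower in PAt and Arrested (-3.29, SE 0.12, adjusted p = 4.3e-15). It split the pair of PAt and Arrested, with 0.78 more in Arrested (SE 0.14, adjusted p = 0.002) and no overlap, a difference under the fold change limit that ranked 27 of 13190. The mean of PAt was 0.14 below that of Tnaive (adjusted p = 0.436). In Persistent, Il4 was 0.75 above Tnaive (SE 0.12, adjusted p = 1.4e-05), again under that limit.

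Ifng, the Th1 cytokine, was not confined to Teff. It read 5.33, 5.09 and 5.34 in Tnaive and between 6.91 and 8.07 in the other 15 libraries, so Tnaive stood apart below all of them. From high to low, the other means were those of Teff (8.01 ± 0.11), Pers1 (7.80 ± 0.21), Pers2 (7.61 ± 0.09), PAt (7.39 ± 0.15) and Arrested (7.28 ± 0.32), and no neighbours among these 5 differed at an adjusted p under 0.05 (0.194 to 0.759). The spread in Arrested came from replicate 2, at 6.91 beside 7.48 and 7.45. Ifng was called higher than in Tnaive in Teff (2.76, SE 0.14, 6.76-fold, adjusted p = 6.4e-13), Persistent (2.45, SE 0.13, 5.48-fold, adjusted p = 1.8e-13) and PAt and Arrested (2.08, SE 0.13, 4.23-fold, adjusted p = 7.5e-12). The difference between Persistent and Teff was -0.30 (95% interval -0.57 to -0.04), with overlapping libraries. PAt and Arrested lay 0.68 below Teff (SE 0.13, adjusted p = 1.1e-04), without overlap and under the fold change limit. Persistent lay 0.37 above PAt and Arrested (SE 0.10, adjusted p = 0.00283), also under that limit and with overlapping libraries.

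Among the TNF ligands, Cd40lg separated Timer-negative from Timer+ cells and did not separate CD44lo from CD44hi cells. The CD40 ligand gene read 12.22, 12.10 and 11.89 in Tnaive and 12.32, 12.07 and 12.14 in Teff, which overlapped (difference 0.10, 95% interval -0.08 to 0.29, adjusted p = 0.337). The 12 Timer+ libraries lay between 9.56 and 10.38. Cd40lg was thus 4.59-fold lower in Persistent than in Teff (-2.20, SE 0.08, adjusted p = 1.8e-15) and 4.40-fold lower in PAt and Arrested (-2.14, SE 0.08, adjusted p = 3.2e-15). Against Tnaive it was 4.27-fold lower in Persistent (-2.09, SE 0.08, adjusted p = 8.3e-16) and 4.09-fold lower in PAt and Arrested (-2.03, SE 0.08, adjusted p = 4.1e-15). Within the pairs it was lower in Pers2 than in Pers1 (-0.38, SE 0.09, adjusted p = 0.00914) and higher in Arrested than in PAt (0.54, SE 0.09, adjusted p = 9.3e-04), both without overlap and under the fold change limit.

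Tnfsf8, the CD30 ligand gene, was the only one of the 8 called between Persistent and the other Timer+ cells. Pers1 read 7.98, 8.37 and 8.43 and Pers2 8.24, 8.31 and 8.43. PAt read 10.68, 10.81 and 10.75 and Arrested 10.56, 10.75 and 10.88, which overlapped with Tnaive at 10.46, 10.55 and 10.72. Teff was highest at 11.53, 11.60 and 11.67. Persistent was 5.45-fold below PAt and Arrested (-2.45, SE 0.07, adjusted p = 7.5e-17), the 13th lowest fold change of the 13190 genes, 9.89-fold below Teff (-3.31, SE 0.09, adjusted p = 2.3e-17) and 4.86-fold below Tnaive (-2.28, SE 0.09, adjusted p = 1.8e-15). The rise from Tnaive to Teff was 1.02 (SE 0.10, 2.03-fold, adjusted p = 2.8e-08) and sat at the fold change limit of 1. It came to 0.94 with library medians set equal, 0.98 after quantile normalisation, 0.97 without Tnaive replicate 1 and 0.99 without Teff replicate 3, and was then no longer called. PAt and Arrested lay 0.86 below Teff (SE 0.09, adjusted p = 5.7e-08), which was not called.

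Tnf had the same order of population means as Tnfsf8 over a narrower range. It read 10.63, 10.71 and 10.66 in Teff, 10.54, 10.47 and 10.62 in PAt and 10.50, 10.50 and 10.51 in Arrested. Tnaive lay lower at 9.87, 10.02 and 9.92, as did Pers1 at 9.87, 9.65 and 9.87 and Pers2 at 9.82, 9.78 and 9.83. No library of the first 3 populations overlapped with one of the last 3. The step from Arrested to Tnaive was 0.57 (SE 0.07, adjusted p = 5.1e-07), and neighbours on either side of it differed by 0.01 to 0.13 (adjusted p = 0.099 to 0.956). Tnf was 1.65-fold lower in Persistent than in PAt and Arrested (-0.72, SE 0.05, adjusted p = 2.0e-11), 1.82-fold lower than in Teff (-0.86, SE 0.06, adjusted p = 5.4e-11) and 1.66-fold higher in Teff than in Tnaive (0.73, SE 0.07, adjusted p = 7.0e-09). None of these passed the fold change limit, so Tnf was called in no comparison of 2 groups.

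Tnfsf11, the RANK ligand gene, fell into 3 levels. Tnaive was lowest at 7.86, 7.33 and 7.53, the 12 Timer+ libraries lay between 9.36 and 9.83, and Teff was highest at 11.35, 11.13 and 11.32. No library of 1 level overlapped with another level. Tnfsf11 was 12.9-fold higher in Teff than in Tnaive (3.69, SE 0.12, adjusted p = 1.2e-16). It was 4.26-fold higher in PAt and Arrested than in Tnaive (2.09, SE 0.10, adjusted p = 1.4e-13) and 3.66-fold higher in Persistent (1.87, SE 0.10, adjusted p = 3.7e-13). Persistent was 3.54-fold below Teff (-1.82, SE 0.10, adjusted p = 1.6e-12), and PAt and Arrested 3.04-fold (-1.60, SE 0.10, adjusted p = 1.6e-11). Among the 4 Timer+ populations the neighbours differed by 0.01 to 0.18 (adjusted p = 0.193 to 0.978). Persistent as a whole had -0.22 against PAt and Arrested (SE 0.08, adjusted p = 0.0206), under the fold change limit and with overlapping libraries.

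Levels can be compared only roughly between genes once divided by exonic length. That length joins all annotated exons of a gene and need not match the transcripts counted. The regularised form of the values is a further limit, so small gaps between genes are not ranked with certainty. On the log2 scale per kilobase, the Teff means were 11.86 for Cd40lg, 10.10 for Tnfsf11, 9.95 for Tnf, 9.67 for Tnfsf8, 8.06 for Il4, 8.03 for Il21, 7.64 for Ifng and 4.59 for Il2. The 4 TNF ligand genes thus stood above the 4 cytokine genes. In Tnaive the order began with Cd40lg (11.75), Tnf (9.22) and Tnfsf8 (8.65) and ended with Il21 (2.61). In Pers2, Il21 stood at 1.73 and Cd40lg at 9.46, and Cd40lg was again followed by Tnf at 9.10.

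**Figure D2:**
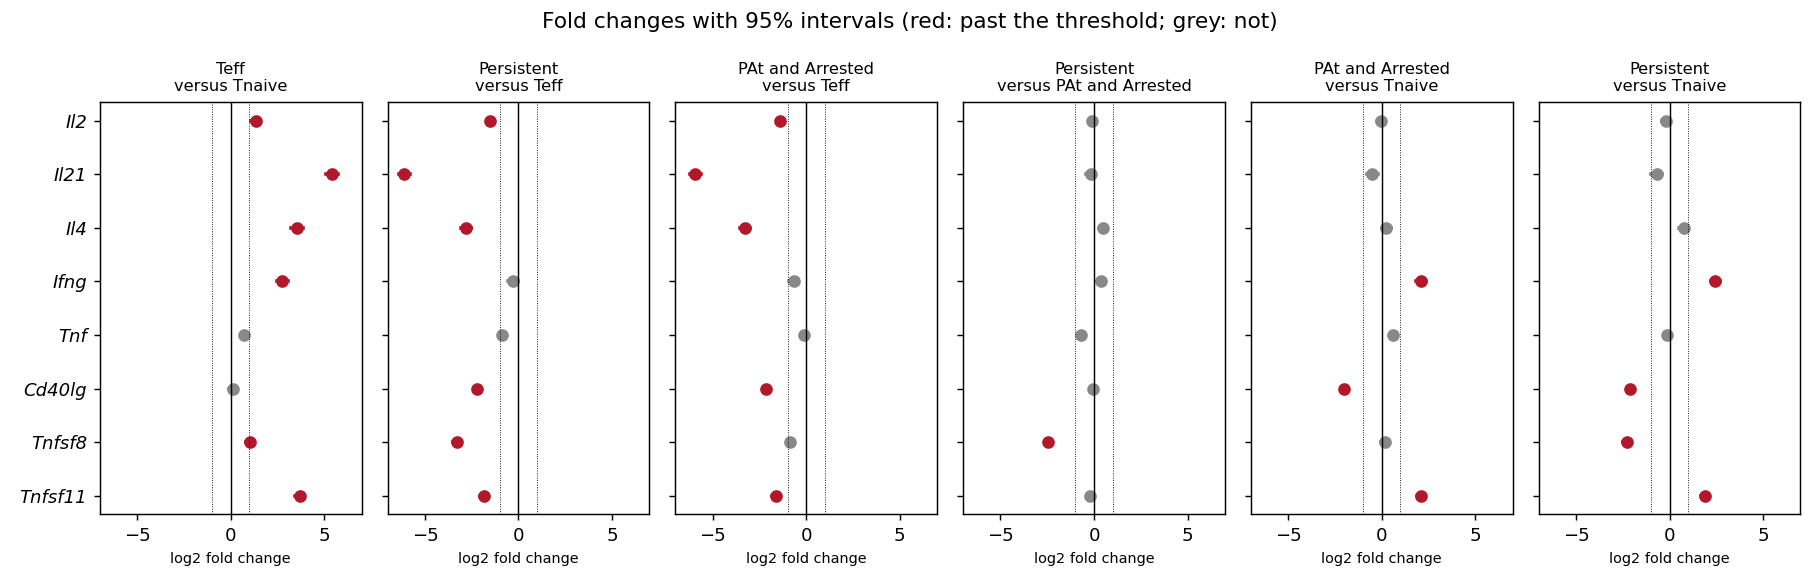
Each panel shows 1 comparison, with the log2 fold change of the 8 genes on the horizontal axis and horizontal bars for the 95% interval, which are narrower than most points. Red points passed the threshold (adjusted p under 0.05, absolute log2 fold change over 1, dotted lines) and grey points did not. All called genes were higher in Teff than in Tnaive and lower in both Timer+ groups than in Teff, and Tnfsf8 alone passed between Persistent and PAt and Arrested.

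The comparison of Teff with Tnaive asks which of these genes are higher in activated conventional cells. In it 6 of the 8 genes were called higher (Il21, Tnfsf11, Il4, Ifng, Il2 and Tnfsf8) and 0 lower, where 8.88% of all tested genes were called higher and 2.28% lower. Their median log2 fold change was 2.04 and that of all tested genes 0.005. Called higher genes made up 79.6% of all calls, and 63.1% after quantile normalisation.

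The comparisons of Timer+ cells with Teff ask how far cells with persistent Foxp3 transcription carry the same genes. They ask this also of PAt and Arrested cells, which had low or no blue. Between Persistent and Teff 6 genes were called lower (Il21, Tnfsf8, Il4, Cd40lg, Tnfsf11 and Il2) and 0 higher, beside 4.03% and 4.28% of all tested genes, and the median was -2.01 beside -0.003. Between PAt and Arrested and Teff 5 were called lower (the same genes without Tnfsf8) and 0 higher, beside 4.04% and 2.84%, with a median of -1.50 beside -0.005. Both comparisons share the Teff libraries with each other and with that of Teff and Tnaive, so the counts are not independent.

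Against Tnaive the 8 genes went both ways. In PAt and Arrested 2 were called higher (Ifng and Tnfsf11) and 1 lower (Cd40lg), beside 6.63% and 1.27% of all tested genes. In Persistent the same 2 were called higher and 2 lower (Cd40lg and Tnfsf8), beside 10.6% and 4.78%. Of all calls in Persistent against Tnaive 68.9% were higher, and this came to 57.2% with library medians set equal, where the median of all tested genes moved to -0.1336, and 55.8% after quantile normalisation (-0.1032). The member medians were 0.20 and -0.16.

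Within the Timer+ cells few of the genes were called. Between Persistent and PAt and Arrested 0 were called higher and 1 lower, Tnfsf8, beside 4.74% and 2.77% of all tested genes. A further 4 had an adjusted p under 0.05 at less than the fold change limit, namely Tnf at -0.72, Il4 at 0.50, Ifng at 0.37 and Tnfsf11 at -0.22. Between Pers2 and Pers1 limma called 0 of the 8, beside 0.144% higher and 0.0455% lower, with Cd40lg the 1 gene at an adjusted p under 0.05. Between Arrested and PAt it called 0, beside 0.0455% higher and 0.0758% lower, with Il4 and Cd40lg at an adjusted p under 0.05. At an unadjusted p under 0.05 there were 2 of the 8 in each of these 2 comparisons, and the share of all tested genes at that level was not counted.

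**Figure D3:**
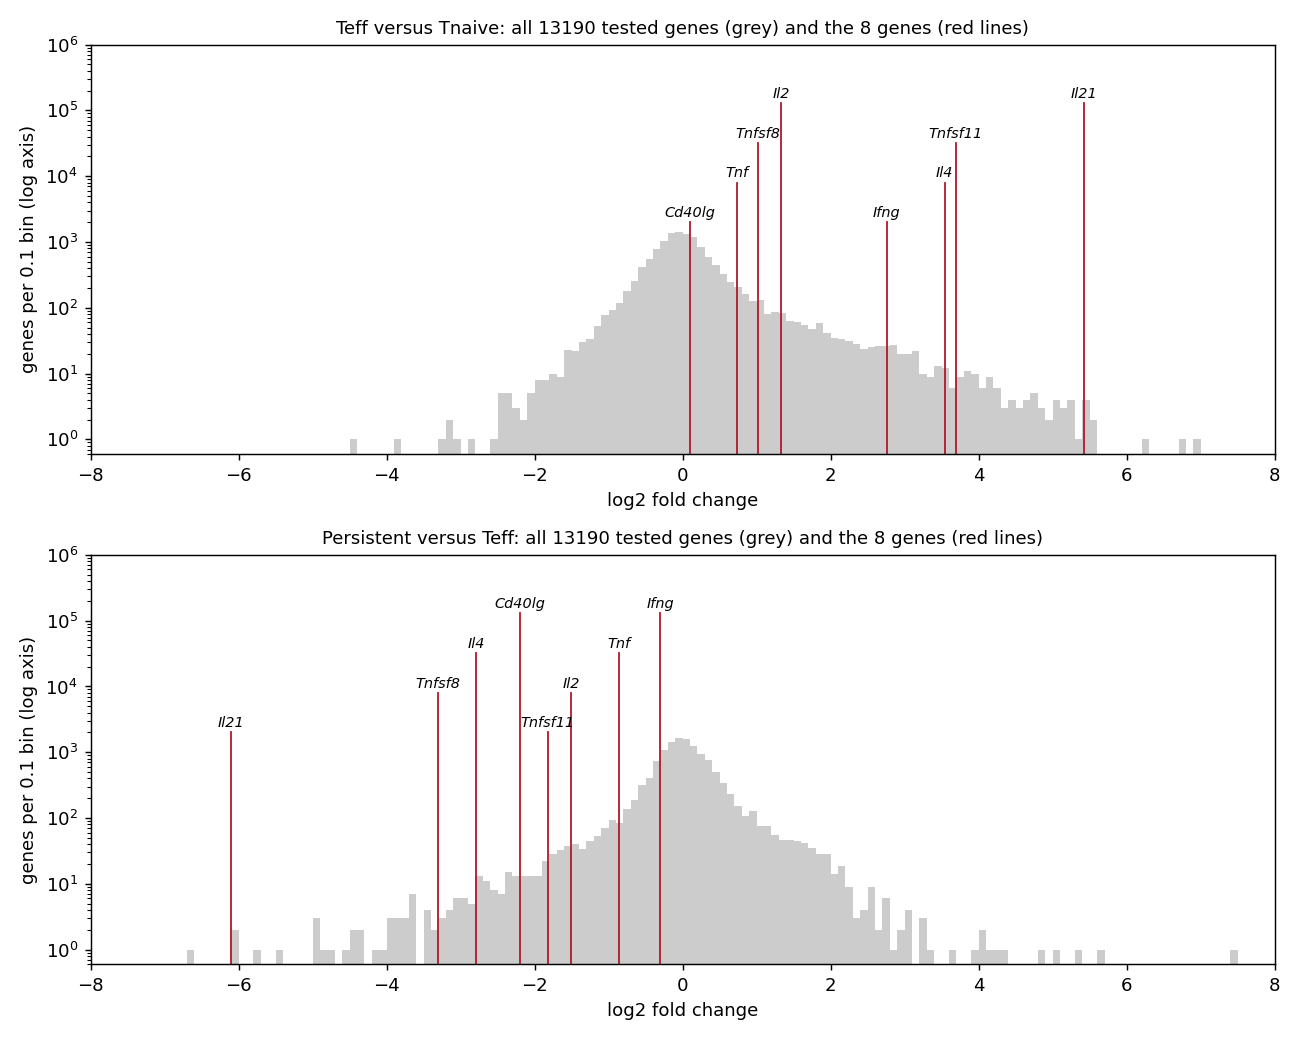
The grey bars count the 13190 tested genes in bins of 0.1 of log2 fold change (horizontal axis) on a log axis, for Teff versus Tnaive above and Persistent versus Teff below. Red lines mark the 8 genes, and the heights of the lines only make room for the names. Il21 lies near the end of both distributions, Cd40lg lies in the middle of the upper and well to the left in the lower.

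Timer-negative and Timer+ cells each hold a more and a less activated group by Cd44 and by Mki67, a gene of cycling cells (Mki67 means of 8.48 in Tnaive, 12.62 in Teff, 14.51 and 14.54 in Pers1 and Pers2, and 11.65 and 11.63 in PAt and Arrested). Cd44 means were 9.61 in Tnaive, 13.05 in Teff, 12.83 and 13.03 in Pers1 and Pers2, and 12.01 and 11.86 in PAt and Arrested. Both genes thus rose more on the Timer-negative side. The part of this unequal step in the differences below was not tested. Whether the genes move alike between these groups was tested as the difference between Teff minus Tnaive and Persistent minus PAt and Arrested, which share no library. This difference was called above 0 for 7 of the 8 genes and below 0 for none, beside 6.90% and 1.52% of all tested genes, and the median was 2.71 beside 0.005. It was 5.59 for Il21 (SE 0.20, adjusted p = 4.9e-15), 3.91 for Tnfsf11 (SE 0.14, adjusted p = 4.9e-15), 3.47 for Tnfsf8 (SE 0.13, adjusted p = 5.4e-15) and 3.04 for Il4 (SE 0.17, adjusted p = 6.4e-12). Ifng had 2.38 (SE 0.18, adjusted p = 4.4e-10), and Il2 and Tnf 1.45 each (SE 0.13, adjusted p = 7.0e-09 and SE 0.08, adjusted p = 5.7e-12). Cd40lg had 0.17 (95% interval -0.06 to 0.40, adjusted p = 0.229). For Tnf and Tnfsf8 the sides went opposite ways, up by 0.73 and 1.02 in the Timer-negative cells and down by 0.72 and 2.45 in the Timer+ cells. Of all calls in this test 82.0% were above 0, and 64.7% after quantile normalisation.

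**Figure D4:**
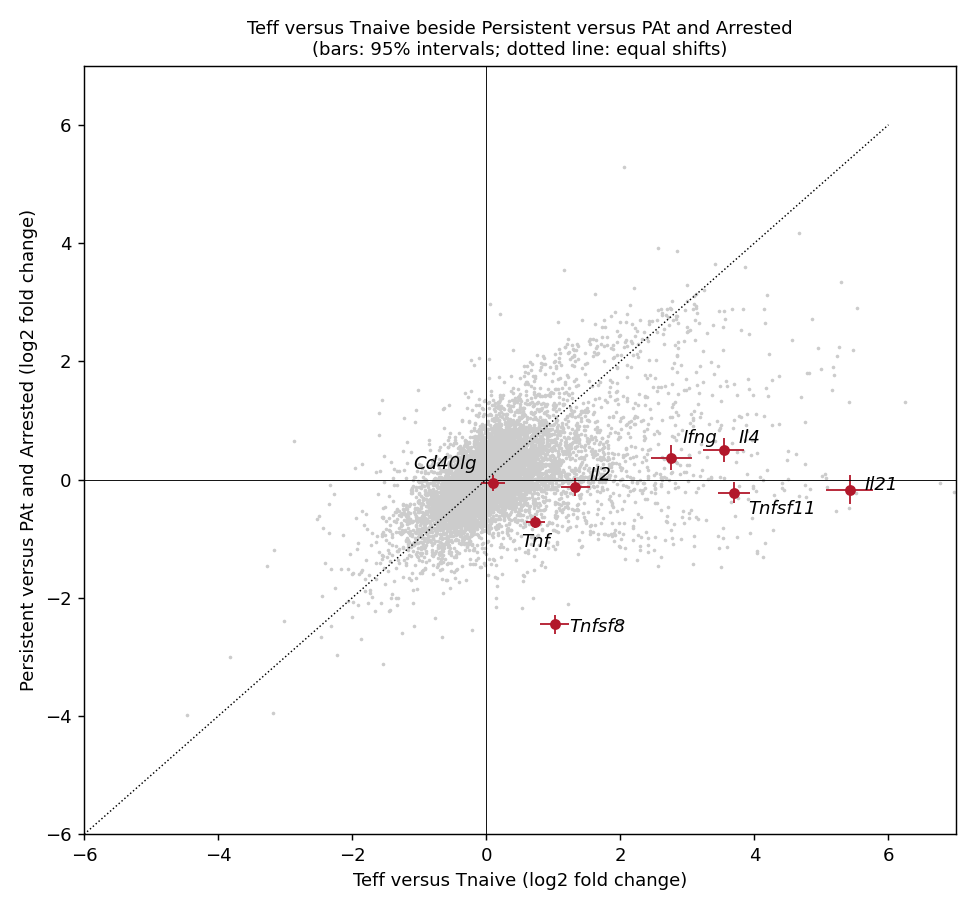
The horizontal axis is the log2 fold change of Teff versus Tnaive and the vertical axis that of Persistent versus PAt and Arrested. Grey points are all tested genes, red points the 8 genes with 95% intervals, and the dotted line marks equal changes. All 8 genes lie below the line. The distance was called for 7 of them, from Tnf and Il2 at 1.45 to Il21 at 5.59, and Cd40lg lies just below the line at 0.17, which was not called.

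The 8 genes did not share 1 pattern. Over the 18 libraries, Il2 and Il21 had a Pearson r of 0.97, Il21 and Il4 of 0.93 and Il2 and Il4 of 0.90, as the Teff libraries stand apart in all 3. Ifng and Tnfsf11 had 0.87, Tnf and Tnfsf8 0.84, and Cd40lg and Ifng -0.42. These points fall into 6 populations and are described with no test. Over the same libraries, genes most like each member were Ctnnd2, B4galt6 and Slc26a11 for Il21 (r = 0.993 to 0.989), Mcemp1, Adam23 and Robo1 for Il2 (0.977 to 0.974), Slc9a9 and Ptpn11 for Il4 (0.981 and 0.976) and Eea1, Casp4 and Inppl1 for Ifng (0.982 to 0.981). Among the ligands they were Pde3b, Themis and Il1rl2 for Cd40lg (0.986 to 0.979), Armcx2, Pde4dip and Parp8 for Tnfsf8 (0.978 to 0.973), Bank1, Sh2b3 and Rnf25 for Tnf (0.959 to 0.949) and Synpo, Cybb and Gpm6b for Tnfsf11 (0.989 to 0.982). Bank1, known from B cells, and Cybb, a phagocyte oxidase gene, are expressed by the other cell types whose markers were high in Teff.

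Of 21 other cytokines of T cells listed, 16 were in the table and 9 were tested, and Il5, Il13, Il17a, Il17f, Il22, Csf2 and Il12a lay below the limit on mean level, with means of 0.22 to 3.21. In Teff against Tnaive 5 of the 9 were called higher and 0 lower, beside 8.88% and 2.28% of all tested genes. Among the 5 were Csf1 (3.69, SE 0.10), the macrophage growth factor, Ebi3 (3.04, SE 0.14), a subunit of IL-27 and IL-35, Lif (2.99, SE 0.14) and Il1b (1.62, SE 0.10), a myeloid cytokine. In Persistent against Teff 3 were called higher, namely Il10 (2.60, SE 0.16), an inhibitory cytokine, Ebi3 (1.25, SE 0.12) and Csf1 (1.24, SE 0.09), and 1 lower, Il1b (-1.61, SE 0.09), beside 4.28% and 4.03% of all tested genes. Il10 thus had means of 8.57 and 9.19 in Pers1 and Pers2, 6.29 in Teff and 4.92 in Tnaive, and unlike the 4 helper cytokines it was highest in Persistent cells. Limma's adjusted p-values for these 8 fold changes were 1.8e-08 or smaller.

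Among 9 other TNF ligands tested of 14 listed, 2 were called higher in Teff than in Tnaive and 0 lower, beside 8.88% and 2.28% of all tested genes. The 2 were Tnfsf14 (LIGHT, 3.90, SE 0.13) and Tnfsf4 (OX40 ligand, 1.03, SE 0.12), which T cells and antigen-presenting cells express. Both were called lower in Persistent than in Teff (-1.38, SE 0.11, and -1.12, SE 0.10), and Tnfsf10, the death ligand TRAIL, was called higher (1.35, SE 0.07), beside 4.03% lower and 4.28% higher of all tested genes. The largest of limma's adjusted p-values for these 5 fold changes was 1.4e-07, that of Tnfsf4 between Teff and Tnaive. Lta, the neighbour of Tnf in the genome and a ligand of the same receptors, was the 1 ligand of this list called between Persistent and PAt and Arrested (-1.36, SE 0.06, adjusted p = 1.6e-14), with means of 11.49 and 11.12 in PAt and Arrested and 9.59 to 10.09 elsewhere. Lta was named after its values were seen.

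Between Persistent and Teff 5 of 13 tested receptor genes of the 8 products were called higher and 0 lower, beside 4.28% and 4.03% of all tested genes. Between PAt and Arrested and Teff 4 were higher and 0 lower, beside 2.84% and 4.04%. Against Tnaive, 4 were called higher in each (Il2ra, Il2rb, Tnfrsf1b and Tnfrsf8), with 0 lower in PAt and Arrested and 3 lower in Persistent (Ifngr2, Il4ra and Tnfrsf1a). Of all tested genes, 6.63% were called higher and 1.27% lower in PAt and Arrested, and 10.6% and 4.78% in Persistent. The named values that follow are those of Persistent against Teff. Il2ra, the high-affinity IL-2 receptor chain and a marker of regulatory T cells, had 5.08 (SE 0.08, adjusted p = 1.2e-20), Tnfrsf1b, the TNF receptor of regulatory T cells, 2.39 (SE 0.05, adjusted p = 5.5e-19), Tnfrsf8, which encodes CD30, 1.79 (SE 0.11, adjusted p = 9.0e-12) and Il2rb 1.22 (SE 0.06, adjusted p = 1.2e-13). Their ligand genes had the opposite sign in the same comparison, at -1.51 for Il2, -0.86 for Tnf, which was not called, and -3.31 for Tnfsf8. This did not hold for all receptors. Cd40 (-0.98), Il13ra1 (-0.9), Tnfrsf11a (-0.42), Tnfrsf1a (-0.17) and Ifngr2 (-0.09), none of them called, had the sign of their ligand genes. Il2rg, Ifngr1, Il4ra and Il21r had the opposite sign. In Teff against Tnaive 5 receptors were called higher and 3 lower, beside 8.88% and 2.28% of all tested genes. Among the 5 were Il2rb (3.74, SE 0.07, adjusted p = 1.7e-20), Il2ra (1.73, SE 0.10, adjusted p = 1.9e-12) and Il13ra1 (1.48, SE 0.11, adjusted p = 3.9e-10), and among the 3 was Il4ra (-2.43, SE 0.06, adjusted p = 8.6e-19).

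**Figure D5:**
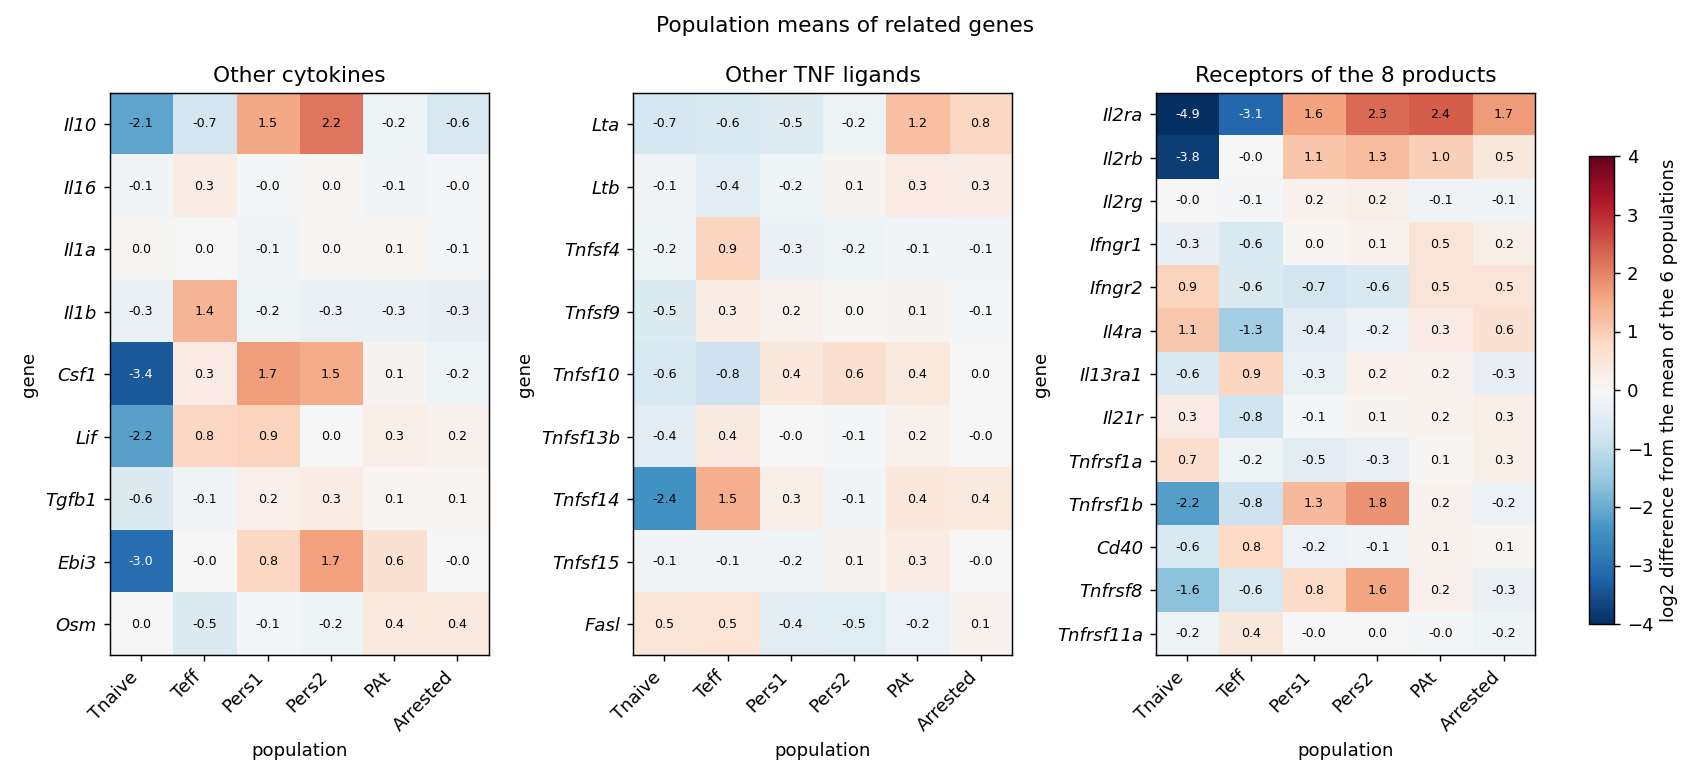
Heat maps of the tested genes of 3 lists (other cytokines, other TNF ligands, receptors of the 8 products), with genes in rows and populations in columns. Colour and printed number give the population mean minus the mean of the 6 population means, in log2 units from -4 to 4. Il10 was highest in Pers1 and Pers2, Lta in PAt and Arrested, and Il2ra in the 4 Timer+ populations.

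Transcription factors known to act on these genes were called in both directions. Of 26 tested, 8 were called higher and 2 lower in Teff than in Tnaive, beside 8.88% and 2.28% of all tested genes. The 4 with the largest change were Maf, an activator of Il4 and Il21 (5.47, SE 0.10), Bhlhe40 (4.44, SE 0.29), the Th1 factor Tbx21 (3.49, SE 0.14) and Irf4 (3.37, SE 0.12). Between Persistent and Teff 3 were called higher and 4 lower, beside 4.28% and 4.03%. Foxp3 (4.18, SE 0.06) and Prdm1, a repressor of Il2 and Bcl6 (3.61, SE 0.07), were higher, and Bcl6, the follicular helper factor (-2.70, SE 0.08), and Eomes (-1.91, SE 0.12) were lower. Foxp3 is part of how these cells were sorted. Maf and Tbx21 had means of 13.84 and 13.86, and of 9.24 and 8.78, in Pers1 and Pers2, beside 13.39 and 8.98 in Teff. The largest of limma's adjusted p-values for these 8 fold changes was 2.5e-11. Also called between Persistent and Teff were Ikzf3 (1.62, SE 0.05), higher, and the AP-1 genes Jun (-1.19, SE 0.16) and Fosb (-1.14, SE 0.16), lower. Between Persistent and PAt and Arrested 7 were called higher (Prdm1, Maf, Tbx21, Irf4, Ikzf3, Batf and Runx3), beside 4.74% of all tested genes. Called lower were 3, namely Jun (-2.09, SE 0.13), Fosb (-1.53, SE 0.13) and Fos (-1.46, SE 0.06), beside 2.77%. Of 8 genes whose products control cytokine mRNA after transcription, such as Zfp36 and Zc3h12a, limma called 0 in each of the 9 comparisons, where 1 to 7 of them had an unadjusted p under 0.05 and the absolute log2 fold changes reached 0.97. Of all tested genes, 0.0455% to 10.6% were called in a given direction, so 0 of 8 says little. The share of all tested genes at that unadjusted level was not counted. At an adjusted p under 0.05 there were 0 to 7 of the 8 over the 9 comparisons. There were 7 in Persistent versus PAt and Arrested and 7 in Persistent versus Tnaive, beside 9357 and 9767 of the 13190 tested genes.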

How the data were processed

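RNA-seq was analysed in 18 libraries, 3 for each of 6 sorted T cell populations. As the paper describes, the authors made stranded mRNA libraries and aligned paired-end reads to mm10, and the submitters' processing notes name CASAVA 1.8.2, FastQC 0.11.2, TopHat2 2.0.9 and, for the authors' statistics, DESeq2. The counter, its annotation and its strand setting are not given in the sources used here. The deposited values are log2 normalised counts of 15402 genes, from -0.02 to 18.89, 173 of them negative and none whole, which is how regularised log values from that package look. Read counts were not analysed here, so depth and counting error are unknown, and precision rests on the spread between 3 libraries.

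The values were used as deposited, with no pseudocount. A mean of at least 3 kept 13190 genes for testing and removed 2212. Using limma 3.58.1 (R 4.3.3), 1 model of the 6 populations was fitted over the 18 libraries, which left 12 residual degrees of freedom, with a variance trend and Benjamini-Hochberg adjustment over all tested genes. Calls used the thresholds of the study, 0.05 for the adjusted p and 1 for the absolute log2 fold change. Persistent is the mean of Pers1 and Pers2, weighted equally, as is PAt and Arrested. All adjusted p-values are limma's. On simulated data for Teff versus Tnaive, with 200 of 13190 genes changed by 2, the model recovered 200 with 0 false calls. The values were drawn independently for each library and the change was beyond the limit of 1. This checks that the code runs as meant and does not bear on calls near that limit.

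The 8 genes, the gene lists and the tests were chosen with earlier results of these data known. Genes named were the 8, the 3 most correlated with each, up to 4 called genes per list by absolute fold change in Persistent versus Teff and in Teff versus Tnaive, and genes that check the sort. One result that falls under this rule is not reported here. Other genes named, and the markers and receptor levels singled out, were chosen after their values were seen. Coordinates and exonic lengths came from GENCODE vM21 and promoters from RefSeq (GRCm38.p6). Figures were drawn with matplotlib 3.10.9.

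For the replicate block, libraries with the same replicate number were taken as paired, since the series description has all populations sorted from each mouse, though no source says outright that a number marks 1 pool. Deviations from the population means had a median correlation of 0.166 over 45 pairs of libraries with the same number (-0.206 to 0.436, 42 above 0) and of -0.064 over 90 pairs with different numbers, and 17 of 18 libraries were closest to their own number. The main model had no replicate block, because none is mentioned in the methods of the study. The SEs, intervals and adjusted p-values given above therefore do not use this pairing. Alternatives to the filter, the scaling, the variance trend, the libraries fitted and the threshold were run, as were a replicate block and fits without each library.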

Additional observations from a re-analysis of the deposited data

Results flagged for a closer look

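For 7 of the 8 genes, Teff minus Tnaive differed from Persistent minus PAt and Arrested in a test of the difference itself (limma, adjusted over 13190 genes, 12 residual degrees of freedom). This difference in log2 fold change was 5.59 (SE 0.20) for Il21, 3.91 (SE 0.14) for Tnfsf11, 3.47 (SE 0.13) for Tnfsf8, 3.04 (SE 0.17) for Il4, 2.38 (SE 0.18) for Ifng, 1.45 (SE 0.13) for Il2 and 1.45 (SE 0.08) for Tnf. All 7 were called again with the replicate block and after quantile normalisation. Markers of dendritic cells, B cells and macrophages, which were high in the Teff libraries, had medians of the same sign in the same test, at 2.80 over 6 genes, 3.52 over 5 and 2.75 over 4, with 1 macrophage marker, Itgam, called below 0. The median was 2.23 over 2 CD8 genes, 1.04 over 4 NK cell markers and 1.25 over 3 innate lymphoid and mast cell markers. In each of these lists 2 genes were called above 0 and 0 below, beside 6.90% and 1.52% of all tested genes. The part of such other cells in the values of the 7 genes was not tested. Cd44 and Mki67 rose more from Tnaive to Teff than from PAt and Arrested to Persistent, and the part of this was not tested either.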

How the results depend on the processing

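Over 60 results, the 420 values under other settings kept direction and side of the threshold in 401 cases, moved past the threshold in 17 (the rule of an adjusted p alone) and fell short of it in 2, both of Tnfsf8 in Teff versus Tnaive. With a mean of at least 6 required, Il2, Il4 and Il21 were no longer tested, and 3 genes were called in Teff versus Tnaive, 3 in Persistent versus Teff and 2 in PAt and Arrested versus Teff. With the adjusted p alone, 5 were called in Persistent versus PAt and Arrested, 5 in PAt and Arrested versus Tnaive, 7 in Persistent versus Tnaive, 1 in Pers2 versus Pers1 and 2 in Arrested versus PAt. That rule called 7785, 7739, 6950, 9357, 6684, 9767, 1395 and 665 of all tested genes in the 8 comparisons of 2 groups, where the main rule called 1472, 1096, 908, 990, 1042, 2025, 25 and 16 (in the order of Teff versus Tnaive, Persistent and then PAt and Arrested versus Teff, Persistent versus PAt and Arrested, PAt and Arrested and then Persistent versus Tnaive, Pers2 versus Pers1, Arrested versus PAt). Of 600 values without 1 library, 597 kept direction and side. Il2 in PAt and Arrested versus Tnaive, never called, ran from -0.14 to 0.02 without 1 library and changed sign without Tnaive replicate 1. With the replicate block, 6 genes were called in Teff versus Tnaive and 6 in Persistent versus Teff, and 0 of 60 values changed their call. Without counts the depth of Il2, near the lower end of the values tested, could not be judged.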
